A study of Mus musculus with 6 samples.

Results

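The genes described here are 5 members of the nitric oxide and cyclic GMP (cGMP) signalling pathway: Gucy1a1, Gucy1b1, Prkg1, Pde5a and Vasp. They were found on the arrays as the probe sets whose single gene symbol in the platform annotation was one of these names, which gave 11 probe sets of 44991, for 5 of 18186 genes with a symbol of their own. The series compared haematopoietic stem cells (HSC), isolated from mouse bone marrow by flow cytometry, between wildtype mice and mice with a knockdown of PU.1. PU.1 is the ETS transcription factor made from Spi1, and myeloid and B cell development depends on it. There were 3 arrays of wildtype HSC and 3 of PU.1 knockdown HSC, and each array held the RNA of 3 pooled animals, amplified in 2 rounds before labelling. The sources used here do not give how PU.1 was knocked down, which surface markers defined the sort, or the strain and age of the mice.

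Soluble guanylate cyclase is a heterodimer of an alpha and a beta subunit that makes cGMP when nitric oxide binds its haem group. The cGMP activates cGMP-dependent protein kinase, which phosphorylates substrates such as the actin regulator VASP, and phosphodiesterases such as PDE5 break cGMP down again. In platelets this pathway restrains activation and aggregation, and in smooth muscle it brings about relaxation.

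The members were proposed after the knockdown and wildtype comparison of these arrays was known, with Gucy1a1 among the genes that stood out in it. Their differences between the groups are therefore given as a description, with no test. In the limma test of all 44991 probe sets, 0 passed a Benjamini-Hochberg adjusted p of 0.05 (0.0%), and 3200 (7.11%) had an unadjusted p under 0.05. Values are given first as the deposited intensity of each pool and then as log2 intensities, which are log2(value + 16) after quantile normalisation, with group means ± SD over n = 3 pools each. Differences are knockdown minus wildtype on that log2 scale, with the standard error (SE) and 95% interval of the fit over all probe sets.

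The promoter sequences of the members were examined for 3 motifs, because PU.1 binds DNA at a purine-rich core and the series title names the Jun family, which forms AP-1. The motifs were GAGGAA for PU.1, TGANTCA for AP-1 and AGATAA for GATA factors, searched on both strands; no 2 matches overlapped. RefSeq promoter windows of build GRCm38.p6 matched all 5 members with 7 windows, of which the 250 bases before the transcript start were read. GAGGAA was present in 2 of the 7 windows and in 23.3% of all 32851 windows of that length. AGATAA was present in 1 of the 7 and in 9.99% of all, TGANTCA in 0 of the 7 and in 6.75% of all. A match is a description of the letters and not evidence of binding. Shown are both Gucy1a1 windows and the Gucy1b1 window, since these subunits had the most probe sets without overlap between the groups, and the Prkg1 window that held 2 motifs. All lie on the minus strand and are written 5′ to 3′ with motif matches in capitals.
Gucy1a1 upstream start, chr3:82145651-82145900: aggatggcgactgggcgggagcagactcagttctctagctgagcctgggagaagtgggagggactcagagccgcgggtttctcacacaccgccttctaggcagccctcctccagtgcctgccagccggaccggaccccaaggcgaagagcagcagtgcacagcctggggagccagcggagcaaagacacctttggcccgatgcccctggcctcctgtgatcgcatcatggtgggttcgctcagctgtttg
Gucy1a1 downstream start, chr3:82145074-82145323: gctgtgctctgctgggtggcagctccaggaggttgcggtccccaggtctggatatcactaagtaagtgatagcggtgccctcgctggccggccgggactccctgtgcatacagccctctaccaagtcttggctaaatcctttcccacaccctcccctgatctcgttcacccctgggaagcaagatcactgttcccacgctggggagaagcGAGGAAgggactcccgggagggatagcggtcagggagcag
Gucy1b1, chr3:82074712-82074961: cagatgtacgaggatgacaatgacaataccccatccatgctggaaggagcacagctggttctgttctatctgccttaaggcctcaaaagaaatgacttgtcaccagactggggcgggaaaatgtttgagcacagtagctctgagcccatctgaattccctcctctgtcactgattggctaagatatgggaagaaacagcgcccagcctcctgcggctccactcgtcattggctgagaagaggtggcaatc
Prkg1, chr19:31765034-31765283: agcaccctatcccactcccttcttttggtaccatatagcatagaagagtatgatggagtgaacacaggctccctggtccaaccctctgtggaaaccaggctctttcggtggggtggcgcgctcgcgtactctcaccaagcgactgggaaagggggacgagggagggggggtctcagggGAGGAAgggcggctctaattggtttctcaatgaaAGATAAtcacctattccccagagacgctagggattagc
The GAGGAA match of Gucy1a1 covers bases 40 to 35 before the downstream start, and that of Prkg1 covers bases 72 to 67 before the start, with AGATAA at bases 38 to 33. Gucy1a1 and Gucy1b1 are neighbours on chromosome 3 with 0 protein-coding genes between them in the RefSeq gene table, and their nearest starts in the promoter table lie 70.4 kb apart. The windows of Pde5a and Vasp held none of the 3 motifs.

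Before the members, the targeted gene and the labelled cell type were checked. Spi1 (1418747_at) had intensities of 1120, 718 and 1053 in wildtype pools 1, 2 and 3 and of 362, 360.4 and 119 in knockdown pools 1, 2 and 3, so every knockdown pool lay below every wildtype pool. Of the stem cell markers Kit, Slamf1, Cd34, Procr, Mecom, Hlf and Meis1, 7 of 7 were brighter on average than the median probe set; Ly6a was not analysed here. The same held for 6 of 6 neutrophil, 5 of 5 monocyte, 4 of 4 erythroid and 12 of 13 platelet markers, so this level alone does not set stem cells apart from other lineages. Array medians ran from 81.4 to 91.5 intensity units. Wildtype pool 2 stood apart in its marker genes: relative to the mean of wildtype pools 1 and 3 its stem cell markers were higher by 0.77 on the log2 scale, while its markers of platelets differed by -1.17, of neutrophils by -1.41, of erythroid cells by -1.49 and of mast cells by -1.07. The knockdown pools also differed among themselves. Against the mean of the other knockdown pools, pool 2 differed by -1.53 for platelet and by 1.44 for erythroid markers. Knockdown pool 3 differed in the same way by 1.0 for mast cell and by -0.81 for B cell markers. In bulk RNA, fewer cells of a type and less RNA per cell cannot be told apart.

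Gucy1a1, the alpha-1 subunit of soluble guanylate cyclase, was the member with the largest difference. Its brightest probe set, 1434141_at, had intensities of 729.8, 778 and 822 in wildtype pools 1, 2 and 3 and of 272, 352 and 354 in knockdown pools 1, 2 and 3. Every knockdown pool lay far below the lowest wildtype pool, and the pools of each group lay close together. The log2 levels of 9.59 ± 0.11 in the wildtype and 8.45 ± 0.11 in the knockdown differed by -1.15 (SE 0.14, 95% interval -1.47 to -0.82), and the mean deposited intensity of the knockdown pools was 0.42 of that of the wildtype pools. With any 1 pool left out the difference stayed between -1.19 and -1.08.

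The other 2 probe sets of Gucy1a1 were much dimmer and showed smaller differences. On 1420533_at the wildtype pools had 107, 99.9 and 100.3 and the knockdown pools 75.0, 80.3 and 76.6. These groups did not overlap either, with a difference of -0.26 (SE 0.13). On 1420534_at, which on average was dimmer than the median probe set, the wildtype pools had 49.9, 42.4 and 73.7 and the knockdown pools 24.3, 55.3 and 27.4. Here knockdown pool 2 lay above wildtype pools 1 and 2, so the groups overlapped (difference -0.45, SE 0.26, or -0.71 without knockdown pool 2 and -0.27 without wildtype pool 3). The size of the Gucy1a1 difference thus depended on the probe set, and the average over its 3 probe sets was -0.62.

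Gucy1b1 encodes the beta-1 subunit, the haem-binding partner of the alpha-1 chain. Both of its probe sets were dimmer than the median probe set, and neither was at the floor on any array. On 1420871_at the wildtype pools had 71.6, 73.2 and 92.3 and the knockdown pools 61.6, 56.9 and 58.6. The log2 levels of 6.53 ± 0.17 and 6.26 ± 0.08 gave a difference of -0.27 (SE 0.15, 95% interval -0.61 to 0.07), and of -0.17 without wildtype pool 3. On 1420872_at the wildtype pools had 76.1, 34.6 and 71.8 and the knockdown pools 21.9, 21.1 and 22.0, a difference of -0.95 (SE 0.23, 95% interval -1.48 to -0.42). Every knockdown pool lay below every wildtype pool on both probe sets, and on the second the 3 knockdown pools were nearly equal while wildtype pool 2 lay well below the other wildtype pools.

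**Figure D1:**
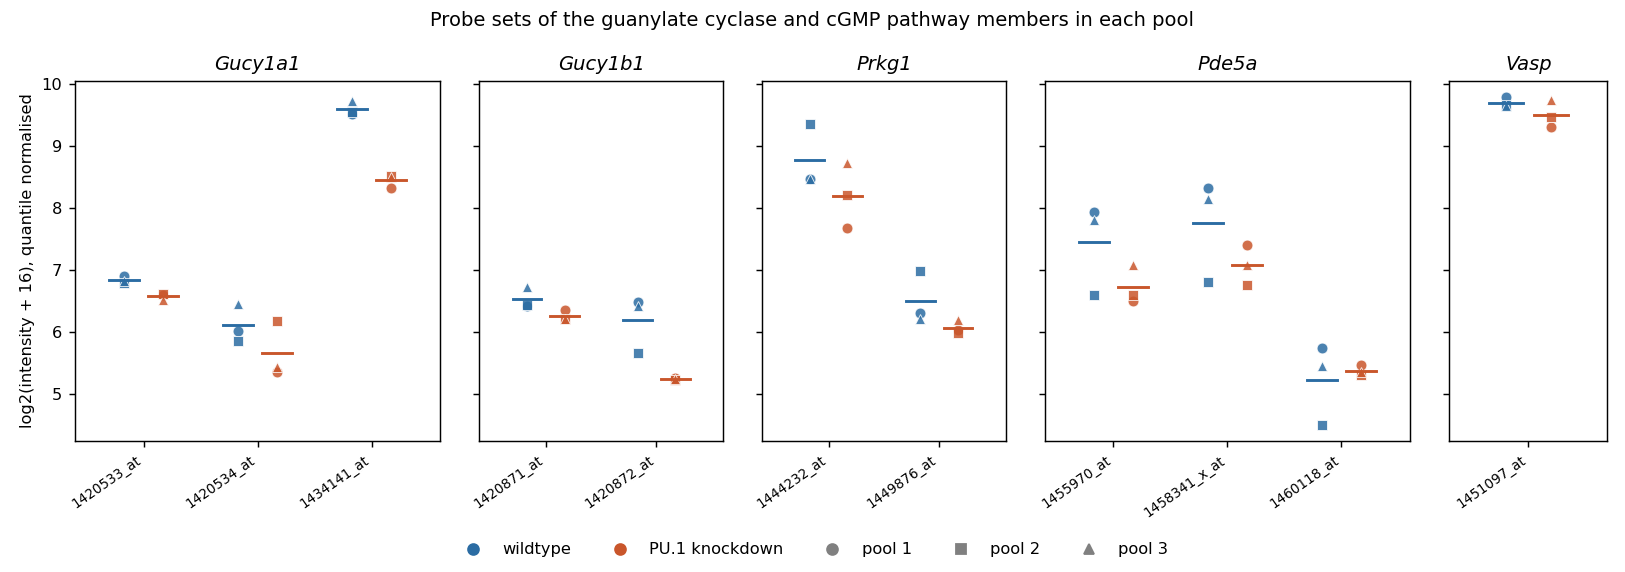
Each point is the log2(intensity + 16) of 1 pool after quantile normalisation, for the 11 probe sets of the 5 members; blue is wildtype, orange is PU.1 knockdown, the marker shape gives the pool number and the bars are group means of 3 pools. The groups are far apart for Gucy1a1 on 1434141_at, at 9.59 against 8.45, while wildtype pool 2 lies apart from the other wildtype pools for Prkg1 and Pde5a.

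Prkg1 encodes cGMP-dependent protein kinase I, the main effector of cGMP in platelets and smooth muscle. On its brighter probe set, 1444232_at, the wildtype pools had 346, 685 and 338 and the knockdown pools 169.8, 279.7 and 417. The groups overlapped, since knockdown pool 3 lay above wildtype pools 1 and 3, and wildtype pool 2 was the highest of all. The log2 levels were 8.77 ± 0.51 and 8.20 ± 0.53, with a difference of -0.57 (SE 0.33, 95% interval -1.33 to 0.19) that was -0.27 without wildtype pool 2 and -0.30 without knockdown pool 1. On the dimmer 1449876_at the wildtype pools had 65.3, 118 and 60.2 and the knockdown pools 46.6, 46.3 and 58.3, a difference of -0.43 (SE 0.22). These groups did not overlap, but only narrowly: after normalisation wildtype pool 3 stood at 6.21 and knockdown pool 3 at 6.20. The difference on this probe set was -0.19 without wildtype pool 2.

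Pde5a encodes the cGMP-specific phosphodiesterase that ends the signal, the target of sildenafil. On 1458341_x_at the wildtype pools had 309, 101 and 266 and the knockdown pools 139, 89.8 and 122. Wildtype pools 1 and 3 were the highest, and wildtype pool 2 lay among the knockdown pools. The log2 levels of 7.76 ± 0.82 and 7.08 ± 0.32 differed by -0.68 (SE 0.39, 95% interval -1.57 to 0.22), by -1.14 without wildtype pool 2 and by -0.40 without wildtype pool 1. Probe set 1455970_at gave the same order of the wildtype pools, with 234, 84.5 and 209 against 69.8, 78.7 and 121 in the knockdown pools, and a difference of -0.73 (SE 0.35) that was -1.14 without wildtype pool 2, -0.48 without wildtype pool 1. The third probe set, 1460118_at, was dim, with wildtype values of 38.5, 6.85 and 28.9 and knockdown values of 27.3, 23.5 and 25.1; its difference was 0.15 (SE 0.30) and turned to -0.22 without wildtype pool 2. A probe set with the suffix x_at can share probes with other transcripts, so the first value may not be of Pde5a alone.

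Vasp encodes the vasodilator-stimulated phosphoprotein, whose phosphorylation is used as a readout of cGMP and cAMP kinase activity. Its probe set 1451097_at had intensities of 879, 856 and 772 in the wildtype and of 540.3, 702 and 861 in the knockdown pools. Knockdown pool 1 was lowest and knockdown pool 3 lay above wildtype pools 2 and 3, so the groups overlapped. The log2 levels were 9.69 ± 0.08 and 9.50 ± 0.22 and differed by -0.20 (SE 0.16, 95% interval -0.56 to 0.17), by -0.10 without knockdown pool 1 and by -0.32 without knockdown pool 3. The arrays measure RNA, and the phosphorylation of VASP was not analysed here.

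Taking the probe set of highest mean for each gene, 5 of 5 members had a lower mean in the knockdown pools, beside 46.6% of all genes, with a median difference of -0.57 beside 0.018 over all genes. Over the 11 probe sets, 10 had lower means, beside 48.3% of all probe sets. The groups did not overlap for 5 of the 11 with the knockdown lower, beside 5.26% of all probe sets, and for 0 with the knockdown higher, beside 7.59%. These 5 were 2 of Gucy1a1, 2 of Gucy1b1 and 1 of Prkg1. The members were chosen on this contrast and probe sets of a gene share their transcript, so nothing is read from these counts.

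**Figure D2:**
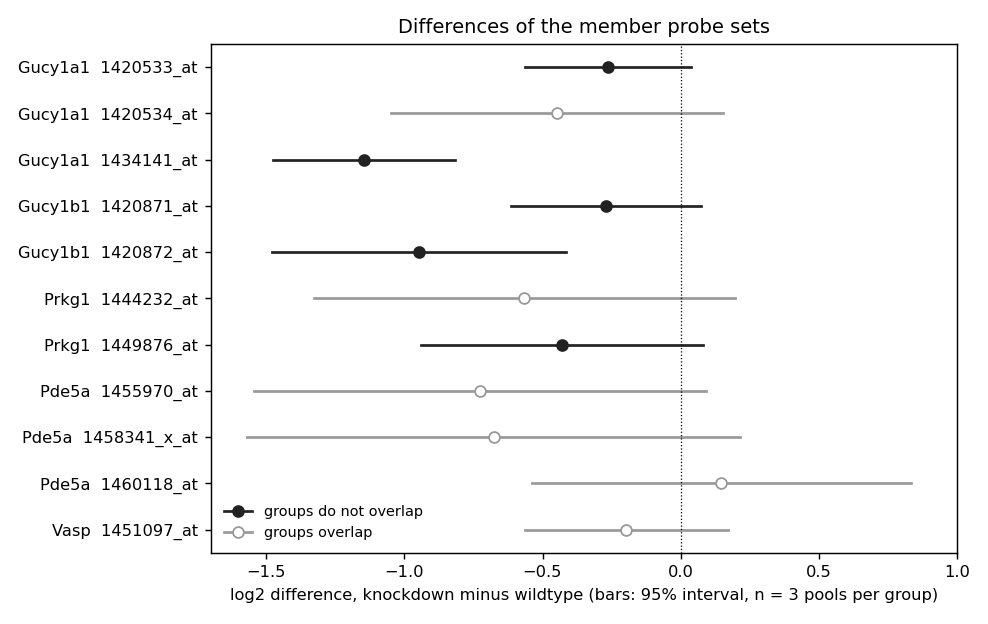
Points are log2 differences, knockdown minus wildtype, of the 11 member probe sets, and bars are 95% intervals of the limma fit with 3 pools per group; filled points mark groups that do not overlap. The difference is -1.15 for Gucy1a1 on 1434141_at, and the widest interval is that of Pde5a on 1458341_x_at, from -1.57 to 0.22.

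The members differed in how they varied among pools of the same genotype. Wildtype pool 2, set against the mean of wildtype pools 1 and 3, differed by -0.08 for Gucy1a1 (1434141_at), by -1.41 for Pde5a (1458341_x_at) and by 0.89 for Prkg1 (1444232_at). In that pool Pde5a was thus low where platelet, neutrophil, erythroid and mast cell markers were all low, and Prkg1 was high where stem cell markers were high. Knockdown pool 2, which had the lowest platelet marker level, was lowest for Pde5a on 1458341_x_at, but on 1455970_at knockdown pool 1 was lowest. In knockdown pools 1, 2 and 3, Prkg1 (1444232_at) stood at 7.67, 8.21 and 8.72. The mean of the stem cell markers there was 9.73, 9.69 and 9.89, a much smaller spread. Gucy1a1 stayed level among the wildtype pools.

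Megakaryocyte and platelet markers were examined because soluble guanylate cyclase, PDE5, cGMP kinase and VASP are all abundant in platelets. Of 13 measured markers, 12 had lower means in the knockdown pools, beside 46.6% of all genes, with a median difference of -1.29. Groups did not overlap for 3 lower and 0 higher of the 13, beside 5.39% and 8.42% of all genes. The summed intensity of the markers ran from 9068 to 19618 in wildtype and from 3349 to 9612 in knockdown pools, and 0 of the 13 were at the floor on any array. For pools 1, 2 and 3, their mean log2 level was 9.83, 8.58 and 9.68 in the wildtype against 8.74, 7.11 and 8.53 in the knockdown. Wildtype pool 2 and knockdown pools 1 and 3 therefore had similar platelet marker levels. In these 3 pools Gucy1a1 stood at 9.54, 8.31 and 8.51, and Pde5a (1458341_x_at) at 6.82, 7.40 and 7.09. With wildtype pool 2 and knockdown pool 2 both left out, Gucy1a1 differed by -1.20, Pde5a by -0.97 and Prkg1 by -0.27. The part of platelet RNA in the members' differences was not tested.

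Smooth muscle, pericyte, endothelial and stromal cells also use this pathway. Of their 14 markers, 8 had lower and 6 higher means in the knockdown pools, with a median difference of -0.07 that covers large differences of both signs. The pericyte marker Pdgfrb had 90.7, 289 and 125 in the wildtype against 496, 527 and 871 in the knockdown, with no overlap (difference 2.00, SE 0.37, limma adjusted p 0.408). The endothelial marker Kdr had 289, 165 and 195 against 105, 82.4 and 89.5, also with no overlap (difference -0.99, SE 0.23, limma adjusted p 0.486). Other markers of these cells did not follow them. The pericyte markers Rgs5 and Cspg4 differed by 0.12 and -0.06, and the endothelial markers Cdh5 and Emcn by -0.22 and 0.08, all with overlapping groups. Of the 14, groups did not overlap for 1 lower and 2 higher, the other higher being Des (0.16), beside 5.39% and 8.42% of all genes. Pdgfrb and Kdr were named after their values were seen, and their part in the members' differences was not tested. The summed intensity ran from 1620 to 3035 in wildtype and from 1702 to 2743 in knockdown pools, so the groups overlapped; the collagen gene Col1a1 alone ran from 87.8 to 1533 within the wildtype pools. The smooth muscle gene Tagln was at or below the floor on 2 arrays, and the others on 0. Mast cell and basophil markers went the other way from the members, with 6 of 7 higher in the knockdown pools and a median difference of 1.08. Among all genes, 46.6% were lower. Of these 7 markers, groups did not overlap for 0 lower and 3 higher, beside 5.39% and 8.42% of all genes.

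**Figure D3:**
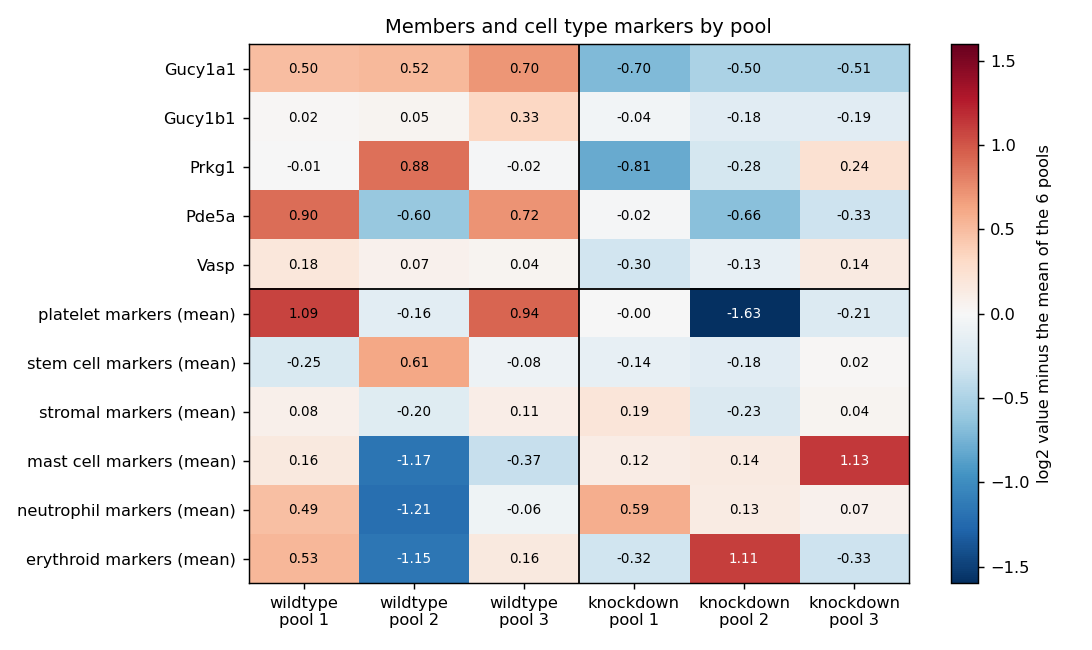
Colours and printed values are log2 levels in each pool minus the mean of the 6 pools, for the brightest probe set of each member and for the mean of 6 marker lists. Gucy1a1 is positive in all 3 wildtype pools and negative in all 3 knockdown pools. Within each group, Pde5a and the platelet markers are lowest in pool 2. For the platelet markers, wildtype pool 2 lies near knockdown pools 1 and 3, with levels before centring of 8.58 against 8.74 and 8.53.

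The other genes of the pathway gave 53 measured genes of 58 listed, and the remaining 5 were not analysed here. In the limma test over all probe sets 0 of the 53 passed the adjusted threshold, while at an unadjusted p under 0.05 there were 2 lower and 1 higher, beside 3.52% and 4.1% of all genes. Means were lower in 31 and higher in 22 of the 53, beside 46.6% lower among all genes. The median difference was -0.06, beside 0.018 over all genes. Groups did not overlap for 5 lower and 3 higher genes of the 53, beside 5.39% and 8.42% of all genes. No conclusion is drawn from counts this small.

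Among the pathway genes with lower values, Rgs2 had the smallest p. It encodes a regulator of G protein signalling that cGMP kinase activates in smooth muscle. Its intensities were 2089, 2382 and 1838 in wildtype and 1257, 1503 and 1097 in knockdown pools, with no overlap between the groups. The difference was -0.67 (SE 0.17, limma adjusted p 0.526), and 3 of its 4 probe sets had this sign, over a range of -1.04 to 0.17. Pde10a, a phosphodiesterase of both cyclic nucleotides, had 140.2, 129 and 144 against 92.4, 78.1 and 106, a difference of -0.43 (SE 0.15, limma adjusted p 0.647). Its 5 probe sets disagreed, from -0.81 to 0.41. Npr2, a membrane guanylate cyclase that is the receptor of C-type natriuretic peptide, differed by -0.45 (SE 0.20, limma adjusted p 0.714) with overlapping groups, and by -0.27 without wildtype pool 2.

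Higher in the knockdown pools was Spr, sepiapterin reductase, which makes the tetrahydrobiopterin that nitric oxide synthases need. Its intensities were 233, 285 and 211 in wildtype and 432, 305 and 296 after knockdown, which is 0.56 higher on the log2 scale (SE 0.22, limma adjusted p 0.676), or 0.33 higher without knockdown pool 1. Pde3b, a phosphodiesterase of cAMP that cGMP inhibits, had 486, 602 and 562.5 against 585, 705 and 659; after normalisation its groups did not overlap, with a difference of 0.31 (SE 0.14, limma adjusted p 0.715). Guca2b, which encodes the peptide uroguanylin, differed by 0.30 (SE 0.15, limma adjusted p 0.741). None of these 6 genes passed the threshold over all probe sets.

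By role, the only other measured soluble cyclase subunit, Gucy1a2, was dim and differed by -0.04 (SE 0.17). The other cGMP kinase gene, Prkg2, was also dim and differed by -0.17 (SE 0.35). Genes of nitric oxide synthesis were lower in 4 and higher in 7 of 11 cases, with endothelial nitric oxide synthase (Nos3) at -0.05 (SE 0.16). Among the 15 phosphodiesterases other than Pde5a, 9 were lower and 6 higher, with a median of -0.12. Among kinase substrates and partners other than Vasp, 6 of 7 were lower, with a median of -0.21. The VASP relatives Enah and Evl each differed by -0.21 (SE 0.27 and 0.24).

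One partner, named here after its values were seen, followed the pools much as Pde5a did. Irag1, listed in the annotation as Mrvi1, anchors cGMP kinase I to the inositol trisphosphate receptor in smooth muscle and platelets. Its intensities were 397, 160.1 and 443 in wildtype and 176, 101 and 196 in knockdown pools on 1459665_s_at. Wildtype pool 2 lay below knockdown pools 1 and 3, so the groups overlapped (difference -0.86, SE 0.40, limma adjusted p 0.724).

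**Figure D4:**
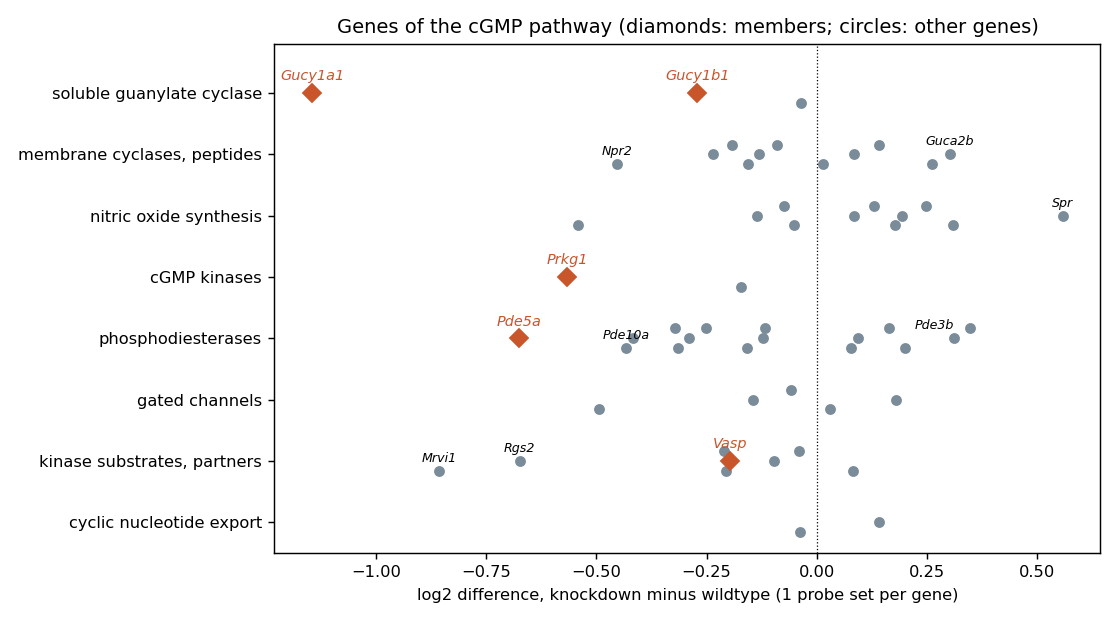
Each symbol is the log2 difference, knockdown minus wildtype, of 1 gene on its brightest probe set, grouped by role in the cGMP pathway; diamonds are the 5 members and circles the other 53 genes. Gucy1a1, at -1.15, lies farthest to the left, and the other genes spread from -0.86 to 0.56 around 0.

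Genes whose values over the 6 arrays were most like those of Gucy1a1 were found by the root mean square (RMS) difference of log2 values after each probe set was centred on its own mean, among the 12005 genes brighter than the median probe set. A gene with several such probe sets entered with the one most like Gucy1a1. Members are given below by named probe sets, so ranks favour the other genes. The closest was Grk3, which encodes a kinase of G protein-coupled receptors, at an RMS difference of 0.143. Next were the sorting nexin gene Snx24 (0.150), the Rac GTPase-activating protein gene Arhgap15 (0.184), the chaperone gene Hspa8 (0.184) and the galectin-like gene Lgalsl (0.191). The list of 10 ended with the phosphorylase kinase subunit gene Phka1, the exporter gene Abcc1, Rabgap1l, Zfp710 and the sarcomere protein gene Myom1, at RMS differences from 0.200 to 0.214. All 10 had groups that did not overlap, with differences from -1.22 for Grk3 to -0.83 for Zfp710, which the choice by likeness to Gucy1a1 fixes.

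Probe sets of these genes did not all show the same size. Within a gene, differences spanned -1.22 to -0.30 for Grk3, -1.04 to 0.15 for Hspa8 and -0.86 to 0.12 for Abcc1. Of the members, Gucy1b1 on 1420872_at was most like Gucy1a1, at an RMS difference of 0.282 with 39 of the 12005 genes nearer, while its probe set 1420871_at stood at 0.453 with 843 nearer. Both Gucy1b1 probe sets were dimmer than the median probe set, unlike the genes they were ranked against. The measure includes the difference between the groups, on which the members were chosen, so nothing is read from these ranks. For Prkg1 (1444232_at), Vasp and Pde5a (1458341_x_at) the RMS differences were 0.505, 0.493 and 0.57. For Spi1 it was 0.68, since its knockdown pool 3 lay far below the others while that of Gucy1a1 did not.

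**Figure D5:**
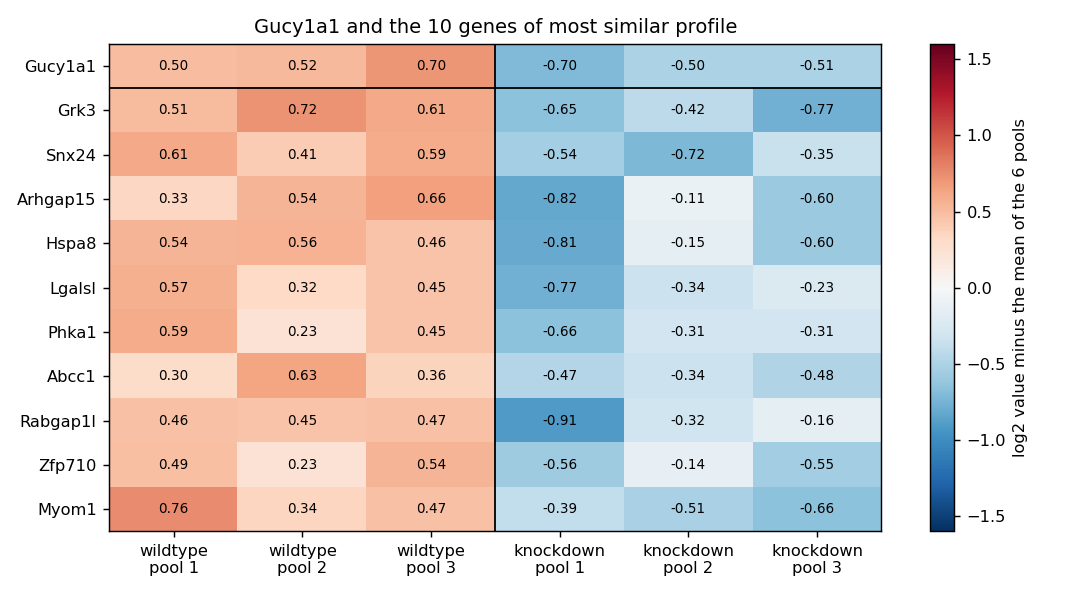
Colours and printed values are log2 levels in each pool minus the mean of the 6 pools, for Gucy1a1 (1434141_at) and the 10 genes of smallest RMS difference from it. All 11 rows are positive in the 3 wildtype pools and negative in the 3 knockdown pools, a pattern that follows from the choice.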

How the data were processed

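Expression was measured on 6 Affymetrix Mouse Genome 430 2.0 arrays, 1 per pool. What the authors deposited is a processed linear intensity per probe set and array. Which software, background correction and scaling made it is not given in the sources used here. No detection calls were used. Values under 1 were set to 1, log2(value + 16) was taken, which understates the folds of dim probe sets, and arrays were quantile normalised. The test was limma 3.58.1 (lmFit, eBayes; R 4.3.3) on all 44991 probe sets. It was two-sided, and p-values were adjusted by Benjamini-Hochberg over the whole table, with a threshold of 0.05. The script was first tested on simulated data. The number of arrays limits the precision; each pool holds separate animals, per the labels. Of the probe sets, 34921 had 1 gene symbol, 930 several and 9140 none; only the first kind were named, and all were tested. A gene was represented by its probe set of highest mean. The search for profiles like that of Gucy1a1 instead took the most similar probe set of each gene.

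The members and gene lists were chosen with earlier results of these data known. The naming rule took all probe sets of the members, Spi1, up to 3 other pathway genes per direction of smallest p, the 10 genes nearest to Gucy1a1, and marker genes. Lists of neutrophil, erythroid, monocyte, B and T cell markers were compared as well; medians were 0.48, 0.34, -0.33, -0.78 and 0.08 (knockdown minus wildtype). Promoter sequences came from RefSeq tables. Alternatives covered the normalisation, pseudocounts of 1 and 64, a filter at the 40th percentile, eBayes with trend and robust, array weights, the replicate number as a block, averaging of probe sets and each pool left out. Leaving out both pools numbered 2 was added after seeing the data. Figures were drawn with matplotlib 3.10.9 in Python 3.11.15.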

Additional observations from a re-analysis of the deposited data

How the results depend on the processing

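All alternatives run for the brightest probe set of each of the 5 members gave a lower mean in the knockdown pools; over all 11 member probe sets, 164 of 167 values kept their sign, and the other 3 were of the dim Pde5a probe set 1460118_at. Averaging the probe sets of a gene moved Gucy1a1 to -0.619 and Gucy1b1 to -0.609, as the probe sets of each differ in size. The median of the 5 members was -0.339 with array weights, -0.29 with both pools numbered 2 left out, and -0.678 to -0.311 with 1 pool left out. For the 53 other pathway genes the median was -0.124 with the values as deposited and -0.081 to 0.01 with 1 pool left out; the filter at the 40th percentile kept 36 of them, 19 of which were lower, as fewer genes were tested. Over all probe sets, 0 to 2 passed the adjusted threshold with 1 pool left out (1 without wildtype pool 1 or 3 or knockdown pool 2, 2 without wildtype pool 2), and 1 with both pools numbered 2 left out. With 1 pool left out, 26 to 32 of the 53 genes were lower and 0 passed. The labels number the pools of both groups alike, and in the sample titles same-numbered pools share only a number. Correlations of their deviations were 0.178, 0.061 and -0.039, beside -0.198 to 0.154 for pools of different number. With 3 pools per group these values cannot show whether the pools were paired. With the replicate block, the Gucy1a1 difference was -1.146 and 0 probe sets passed. Member probe sets under the filter gave no value there. No background or detection value was used, so how far dim probe sets lie above background is not known.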

Other observations

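The cAMP arm, which shares phosphodiesterases and the substrate VASP with the cGMP pathway, was measured with 23 genes of adenylate cyclases, protein kinase A subunits and cAMP phosphodiesterases. Of these, 11 were lower and 12 higher in the knockdown pools, with a median difference of 0.02, and 0 passed the adjusted threshold of the limma test; at an unadjusted p under 0.05 there were 2 lower and 2 higher, beside 3.52% and 4.1% of all genes. Pde4d, a cAMP phosphodiesterase gene, had intensities of 396, 577 and 475 in wildtype and 589, 706 and 874 in knockdown pools (difference 0.64, SE 0.17, limma adjusted p 0.545). Prkar1a, a regulatory subunit of protein kinase A, had 1695, 1586 and 1681 against 2667, 2020.3 and 2114 (difference 0.46, SE 0.17, limma adjusted p 0.656). Pde7b and Pde8b, both dim, differed by -0.70 (SE 0.19) and -0.45 (SE 0.15). These 4 genes were named after their values were seen. For all 4 the groups did not overlap. Among the 23 genes this held for 3 lower and 2 higher, beside 5.39% and 8.42% of all genes.

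Of 9 actin and adhesion partners of VASP, 6 were lower and 3 higher, with a median difference of -0.09 and 0 past the adjusted threshold. Fyb, an adaptor that binds Ena/VASP proteins in haematopoietic cells, had 355, 409 and 329 in wildtype and 164, 273 and 189 in knockdown pools (difference -0.71, SE 0.18, limma adjusted p 0.532). It was the 1 partner whose groups did not overlap (background 5.39% of genes with the knockdown lower) and was named after its values were seen.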
